A study of Mus musculus with 6 samples.

Results

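The genes described here supply cells with amino acids and carry the response that senses their shortage. They are carriers that bring amino acids across the plasma membrane, enzymes that make serine, glycine, asparagine, proline and cysteine, enzymes that move one-carbon units on folate, tRNA synthetases, and the transcription factor Atf4 with genes it is known to control. The list held 48 genes, named by symbol and drawn up with earlier results of these data known. A gene was taken as measured where a probe was annotated to that gene alone, and its brightest probe was used. This gave 46 members among 19938 measured genes. Mars was found under its current symbol, Mars1. Aars had a probe only in common with Exosc6, and Pycr1 had no probe annotated to it alone, so neither counted as measured. Both were kept in the promoter search.

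All 6 samples were pre-B cells from 4-week-old Balb/c mice, labelled as knockout for Blnk and transformed by BCR-ABL1, a constitutively active tyrosine kinase that drives a form of acute lymphoblastic leukemia (ALL). In 3 samples the cells were transduced with pMIG, a retroviral vector with a GFP marker, and in the other 3 with Blnk, also called Slp65, an adaptor that couples the pre-B cell receptor to its effector enzymes. GFP-positive cells were sorted on day 5 after transduction, and their total RNA was hybridised to 1 Affymetrix array per sample. The knockout, the kinase and the sort are thus common to both groups, and the comparison asks what the addition of Blnk changes. The labels do not say whether the 3 samples of a group were separate cultures, animals or clones, so p-values cover no more than the variation among these arrays, part of which may be technical.

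Amino acid shortage leaves tRNAs uncharged, which activates the kinase GCN2. Phosphorylation of the initiation factor eIF2 then slows general translation while it favours translation of Atf4, so the activity of ATF4 is set to a large part after transcription. ATF4, with C/EBP partners, binds amino acid response elements of genes for amino acid synthesis, uptake and tRNA charging. Rapidly dividing lymphoid cells draw heavily on this supply for protein, nucleotide and glutathione synthesis.

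The median intensity was 67.0 to 69.0 on the pMIG arrays and 69.0 to 70.0 on the Blnk arrays, and the small number of arrays limits the precision of every value. Blnk itself read 972, 926 and 1013 with pMIG and 2714, 3342 and 3022 with Blnk. It was higher on every Blnk array, but the pMIG level was itself far above the array medians in cells labelled as lacking Blnk. No source used here says whether this probe lies in the deleted part of the gene, so the reading does not check the genotype. Of 8 pre-B cell markers, 7 were measured, Blnk among them, with gene means from 1418 to 9853. Vpreb1, a part of the surrogate light chain, fell with Blnk (log2 -0.68, limma adjusted p = 0.00976; 0.0502 without pMIG 2 and 0.0688 without pMIG 3). Cd79a, which signals for the B cell receptor, was called higher (log2 0.31, limma adjusted p = 0.0468), but lost the call whichever array was omitted (0.0678 to 0.151). Without passing, Cd79b was higher (0.35) and Ebf1 (-0.25) and Igll1 (-0.19) lower on every Blnk array, and Pax5 overlapped. Summed over this list, Blnk included, the level was 26957 to 27795 with pMIG and 28106 to 29853 with Blnk. Blnk alone rose from a mean of 970 to 3026 within these sums, so they do not show a rise of the other markers. The markers of other cells were lower: 6 of 6 myeloid markers (Lyz2, Mpo, Elane, Csf1r, Itgam and Adgre1) and both measured erythroid markers (Klf1 and Alas2) lay below the array medians on every array, as did 4 of 6 T and NK cell markers and 2 of 6 stromal and endothelial markers. Summed over each list, the level was 199 to 211 with pMIG and 197 to 223 with Blnk for myeloid, 80 to 85 and 79 to 94 for erythroid, and 292 to 357 and 307 to 412 for T and NK cell markers. The stromal and endothelial sum was 836 to 891 with pMIG and 1074 to 1181 with Blnk. Pecam1, which B cells also express, was the highest of that list and rose with Blnk (log2 0.64, limma adjusted p = 0.00339). Cdh5 was dim and did not pass, but was also higher on every Blnk array (log2 0.26, limma adjusted p = 0.248). Col1a1, Col1a2, Col3a1 and Kdr overlapped. The part of these marker shifts in the results below was not tested.

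With Blnk, 10 of the 46 members fell and 0 rose. Slc7a3 and Gldc fell by 2-fold or more, Cth less, and Slc1a5, Gpt2, Atf5, Trib3, Asns, Chac1 and Aldh18a1 by 22.5% to 27.9%, while the Atf4 transcript itself stayed within its spread. A gene is called changed at an adjusted p under 0.05, by limma's moderated test on log2 intensity with Benjamini-Hochberg adjustment over all 19938 genes. Over all genes, 3.61% were called changed, 1.10% lower and 2.51% higher, against 21.7% and 0 of the members. At an unadjusted p under 0.05, 19 members were lower and 0 higher, where 6.32% and 8.91% of all genes were. The median log2 difference of the members, Blnk minus pMIG, was -0.16, and that of all genes was 0.00 after rounding. The mean log2 value was lower with Blnk for 39 of 46 members, and for 50.4% of all genes. The members are brighter than most genes: 8565 of all 19938 genes lay below the array medians on every array, against 3 members. With genes below the 40th percentile left out, 421 of 11963 genes were called lower and 807 higher. Of the 44 members kept there, 12 were lower and 0 higher. The part of brightness in the shares above was not tested. The balance of calls over all genes depends on scaling: 500 genes were higher and 220 lower as deposited, 411 and 327 after repeated quantile normalization, and 417 and 291 with arrays centred on their medians. In these scalings 11 and 10 members were lower, and 0 higher. The members were chosen with earlier results of these data known, Slc7a3 and Gldc among them. Without these 2 genes the median was -0.15 and 8 of 44 members were lower. The 44 were chosen with the same results known, so this does not remove the effect of that choice. In RNA from a mixed sample, fewer cells that express a gene and less of its RNA per cell cannot be told apart.

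**Figure D1:**
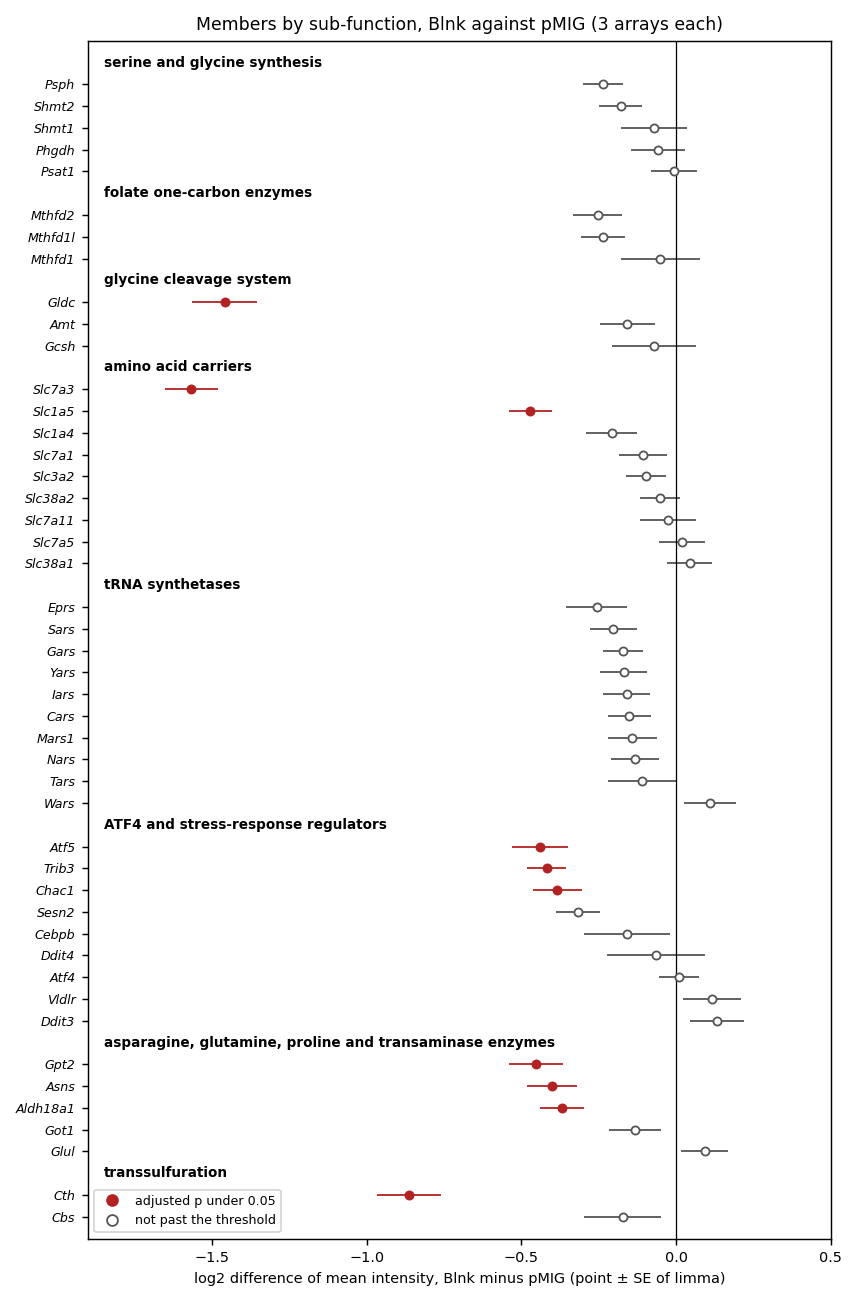
Log2 difference of mean intensity, Blnk minus pMIG, for each of the 46 members, grouped by sub-function (points, with bars for the SE of limma; 3 arrays per group). The 10 filled points passed the threshold, all to the left of 0, from Slc7a3 at -1.57 to Aldh18a1 at -0.37, and no point lies further right than Ddit3 at 0.13.

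The groups did not overlap for 23 of 46 members, and all 23 were lower with Blnk. Over all genes, the groups were separate for 20.0%, 8.15% lower and 11.8% higher. With 3 arrays per group, leaving out 1 array lowered the number of members called lower to 5 when pMIG 1 or Blnk 1 was the array omitted, to 4 for pMIG 3, and to 3 for pMIG 2, Blnk 2 or Blnk 3, with 0 higher each time. Fewer arrays weaken the test by construction. Slc7a3, Gldc and Cth were lower in all 6 of these fits.

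Of 9 carriers among the members, 2 fell and 0 rose. Slc7a3, a carrier of the cationic amino acids arginine, lysine and ornithine, read 237, 248 and 263 on the 3 pMIG arrays and 88, 76 and 89 on the 3 Blnk arrays. Every Blnk array was far below every pMIG array, and the Blnk level came close to the array medians. The difference was 2.96-fold (log2 -1.57, SE 0.0866; limma adjusted p = 1.00e-04). Slc7a1, the widely expressed carrier of the same amino acids, read 999, 987 and 919 with pMIG and 957, 906 and 837 with Blnk (log2 -0.11, 95% interval -0.29 to 0.07; limma adjusted p = 0.601), and its groups overlapped.

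Slc1a5, a sodium-dependent carrier of glutamine and other neutral amino acids, read 4045, 4165 and 3944 with pMIG and 3045, 2782 and 2944 with Blnk. The groups were well separated, with the mean falling from 4051 ± 111 to 2924 ± 133 (SD, n = 3; log2 -0.47, SE 0.0689; limma adjusted p = 0.00998). It passed without pMIG 1 (0.0439) or Blnk 1 (0.0283), and narrowly missed the threshold without pMIG 2 (0.0525), pMIG 3 (0.0538), Blnk 2 (0.0520) or Blnk 3 (0.0514). Its relative Slc1a4, a carrier of alanine, serine and cysteine, did not pass at -0.21 (limma adjusted p = 0.276), though its Blnk arrays, at 413, 349 and 381, lay below its pMIG arrays, at 446, 448 and 424.

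Among the members, the carriers of large neutral amino acids and cystine did not pass. Slc7a5, the light chain of the leucine exchanger, read 2832, 2960 and 2669 with pMIG and 2988, 2872 and 2718 with Blnk, a difference of 0.02 with a 95% interval of -0.15 to 0.19. Its sign turned with scaling, to -0.03 after repeated quantile normalization and -0.02 with centred arrays. Slc3a2, the heavy chain that Slc7a5 and Slc7a11 need at the membrane, stood at -0.10 (limma adjusted p = 0.556). Its Blnk arrays, at 2913, 2760 and 2909, lay below its pMIG arrays, at 3072, 3018 and 3086. Slc7a11, the cystine-glutamate exchanger and a known ATF4 target, was near the lower end of the scale on every array, at 16, 15 and 18 with pMIG and 15, 17 and 16 with Blnk, so little can be said of its change. The glutamine and neutral amino acid carriers Slc38a1 (0.04) and Slc38a2 (-0.05) had overlapping groups.

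A further 27 carriers outside the 48 genes were measured, of which 2 rose and 2 fell, with a median of -0.0036. Slc43a2 and Slc43a1 are close relatives that carry large neutral amino acids such as leucine. Slc43a2 read 152, 171 and 163 with pMIG and 235, 274 and 257 with Blnk, a rise of 0.66 (SE 0.0844; limma adjusted p = 0.00579) that passed with any 1 array left out. Slc43a1 went the other way, from 932, 841 and 891 to 659, 576 and 620, a difference of -0.52 (SE 0.0794; limma adjusted p = 0.0117), and passed without pMIG 2 (0.0377) or Blnk 1 (0.0297) but not without pMIG 1 (0.0538), pMIG 3 (0.0752), Blnk 2 (0.0614) or Blnk 3 (0.0661).

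Slc7a7, the light chain that exchanges cationic for neutral amino acids, rose from 161, 188 and 186 to 261, 244 and 269. Its log2 difference was 0.54 (limma adjusted p = 0.0149), and it passed without pMIG 1 (0.0443) or pMIG 2 (0.0457) but not without pMIG 3 (0.0664), Blnk 1 (0.0755), Blnk 2 (0.0558) or Blnk 3 (0.0828). Slc6a9, a glycine carrier, fell from 430, 489 and 452 to 329, 307 and 322. Its difference was -0.52 (limma adjusted p = 0.0100), and it passed without pMIG 1 (0.0250), pMIG 2 (0.0466) or Blnk 1 (0.0396) but not without pMIG 3 (0.0634), Blnk 2 (0.0615) or Blnk 3 (0.0547). None of these 4 carriers had overlapping groups.

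**Figure D2:**
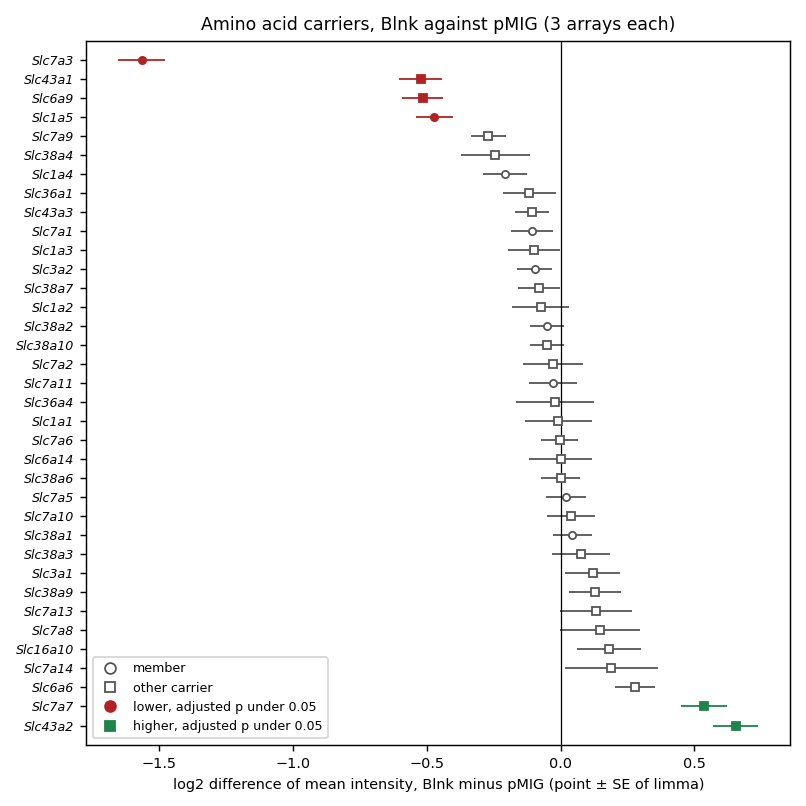
Log2 difference of mean intensity, Blnk minus pMIG, for the 9 carriers among the members (circles) and 27 other amino acid carriers (squares), with bars for the SE of limma and 3 arrays per group. Slc7a3 at -1.57 stands apart on the left, Slc43a1, Slc6a9 and Slc1a5 follow between -0.52 and -0.47, and Slc7a7 at 0.54 and Slc43a2 at 0.66 passed on the right.

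None of the 5 enzymes of serine and glycine synthesis was called changed by limma. Of these, 2 were lower and 0 higher at an unadjusted p under 0.05, against 6.32% and 8.91% of all genes. Phgdh, which opens the pathway from glycolysis to serine, read 766, 817 and 694 with pMIG and 749, 679 and 756 with Blnk (log2 -0.06, 95% interval -0.26 to 0.14). Psat1, the transaminase of the next step, read 2444, 2517 and 2518 with pMIG and 2616, 2297 and 2536 with Blnk (log2 -0.01, 95% interval -0.18 to 0.16). Both had overlapping groups. Psph, the phosphatase that releases serine, stood at -0.24 (limma adjusted p = 0.119, and 0.0439 with dim genes left out) and Shmt2, the mitochondrial enzyme that turns serine into glycine, at -0.18 (limma adjusted p = 0.279). For these 2 genes every Blnk array was below every pMIG array. Shmt1, the cytosolic form, stood at -0.07.

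Of the 3 folate enzymes, none passed, with 2 lower and 0 higher at an unadjusted p under 0.05 (6.32% and 8.91% of all genes). Mthfd2, the mitochondrial enzyme that oxidises the one-carbon unit and a known ATF4 target, read 1555, 1571 and 1503 with pMIG and 1412, 1206 and 1272 with Blnk. Its groups were separate (log2 -0.25, SE 0.0789; limma adjusted p = 0.163), and it passed where the variance prior followed the mean intensity (0.0347). Mthfd1l, which releases formate from mitochondria, had separate groups at -0.24 (limma adjusted p = 0.150, and 0.0261 with that variance prior), and the cytosolic Mthfd1 overlapping groups at -0.05.

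Gldc was the member of the glycine cleavage system that fell. It encodes the decarboxylase that opens the breakdown of glycine in mitochondria and hands a one-carbon unit to folate. Gldc read 1055, 1155 and 1044 with pMIG and 451, 347 and 392 with Blnk. The lowest pMIG array was far above the highest Blnk array, and the means, 1085 ± 61.2 and 397 ± 52.2 (SD, n = 3), differed 2.75-fold (log2 -1.46, SE 0.105; limma adjusted p = 0.000294). Amt and Gcsh, which encode the aminomethyltransferase and the lipoyl carrier protein of the same complex, were dim. Amt lay below the array medians on every array and stood at -0.16 (95% interval -0.36 to 0.05), and Gcsh stood at -0.07 (95% interval -0.39 to 0.24).

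Among 18 other measured enzymes and carriers of folate, methionine and glycine use, 0 rose and 0 fell by limma (median -0.03). Of these, 2 were lower and 0 higher at an unadjusted p under 0.05, against 6.32% and 8.91% of all genes. These 2 were Slc19a1, the reduced folate carrier, at -0.26 (limma adjusted p = 0.146), and Mtr, methionine synthase, at -0.20 (limma adjusted p = 0.245). They were named after their values were seen.

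In the group of 5 measured enzymes of asparagine, glutamine, proline and transamination, 3 fell and 0 rose, with a median of -0.37. Asns, asparagine synthetase and a classical ATF4 target, read 3783, 3843 and 3786 with pMIG, close together, and 3062, 2599 and 2998 with Blnk. The groups were separate and the mean fell from 3804 ± 33.8 to 2886 ± 251 (SD, n = 3; log2 -0.40, SE 0.0813; limma adjusted p = 0.0396). Asns missed the threshold whichever array was omitted, its adjusted p lying between 0.0733 (Blnk 1 omitted) and 0.154 (pMIG 3 omitted).

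Aldh18a1, the enzyme that starts proline synthesis from glutamate, read 1488, 1500 and 1393 with pMIG and 1180, 1072 and 1142 with Blnk (log2 -0.37, SE 0.0719; limma adjusted p = 0.0343). Its groups were separate, and it missed the threshold whichever array was omitted, between 0.0696 (Blnk 1) and 0.128 (pMIG 2). Gpt2, the mitochondrial alanine transaminase, read 288, 293 and 247 with pMIG and 208, 192 and 204 with Blnk (log2 -0.45, SE 0.0868; limma adjusted p = 0.0328). The pMIG 3 array was the lowest of its group, and Gpt2 passed when that array was omitted (0.0386) but not when any of the others was, with 0.139 for Blnk 2 the highest adjusted p. Got1, the cytosolic aspartate transaminase, stood at -0.13 and Glul, glutamine synthetase, at 0.09, both with overlapping groups.

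Transsulfuration makes cysteine from homocysteine through Cbs and then Cth. Cth, cystathionine gamma-lyase, read 1356, 1435 and 1485 with pMIG and 839, 674 and 849 with Blnk. The highest Blnk array was far below the lowest pMIG array, and the mean fell from 1425 ± 65.0 to 787 ± 98.3 (SD, n = 3), a 1.82-fold difference (log2 -0.86, SE 0.103; limma adjusted p = 0.00378). Cth passed with any 1 array left out. Cbs was near the array medians, at 76, 55 and 61 with pMIG and 58, 52 and 59 with Blnk, and had overlapping groups (log2 -0.17, 95% interval -0.46 to 0.11).

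Of 16 other measured enzymes of glutamine, aspartate, proline, arginine and branched-chain amino acids, 0 rose and 1 fell, with a median of 0.04. This was Prodh, proline dehydrogenase, which opens proline breakdown, at 100, 95 and 104 with pMIG and 76, 80 and 80 with Blnk (log2 -0.34, SE 0.0691; limma adjusted p = 0.0400). It missed the threshold whichever array was omitted, between 0.0829 (pMIG 2) and 0.160 (pMIG 3). Of this list, 2 genes were lower and 2 higher at an unadjusted p under 0.05, against 6.32% and 8.91% of all genes. Besides Prodh these were Glud1 (-0.23, limma adjusted p = 0.287), Odc1 (0.32, limma adjusted p = 0.0638) and Asrgl1 (0.25, limma adjusted p = 0.105), named after their values were seen.

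**Figure D3:**
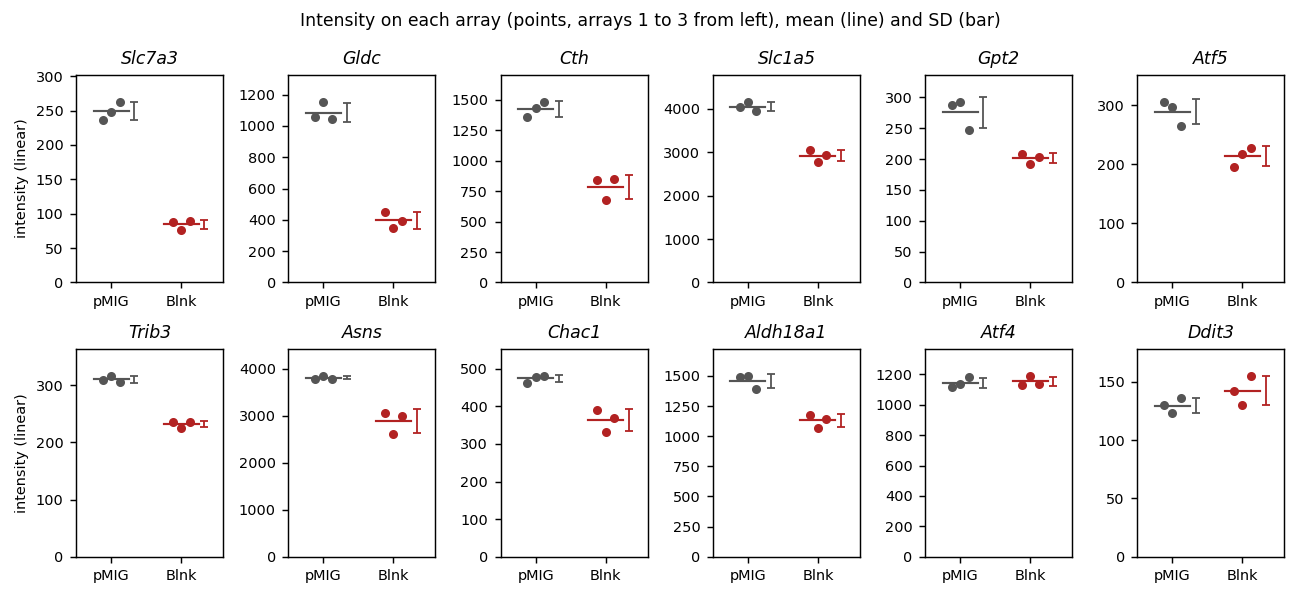
Linear intensity on each array for the 10 members that passed the threshold, ordered by log2 difference, and for Atf4 and Ddit3 (points for pMIG arrays in grey and Blnk arrays in red, lines for means, bars for the SD, n = 3; each axis starts at 0). The groups are separate in the first 10 panels, while Atf4, at 1118 to 1181 with pMIG and 1132 to 1189 with Blnk, and Ddit3 overlap.

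The Atf4 transcript read 1118, 1136 and 1181 with pMIG and 1132, 1189 and 1137 with Blnk. The groups overlapped, with a log2 difference of 0.01 and a 95% interval of -0.14 to 0.16 (limma adjusted p = 0.975), and the sign turned with scaling, to -0.05 after repeated quantile normalization and -0.03 with centred arrays. The array does not read ATF4 protein or eIF2 phosphorylation.

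Of the 9 measured regulators and targets, 3 fell and 0 rose. Trib3, a pseudokinase induced by ATF4 that feeds back on it, read 309, 316 and 305 with pMIG and 235, 225 and 236 with Blnk. Both groups were tight and far apart (log2 -0.42, SE 0.0639; limma adjusted p = 0.0120). Trib3 passed without pMIG 1 (0.0454) or Blnk 1 (0.0400) and not when pMIG 2 (0.0608), pMIG 3 (0.0634), Blnk 2 (0.0604) or Blnk 3 (0.0512) was omitted.

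Chac1, which degrades glutathione and is strongly induced by ATF4, read 463, 479 and 481 with pMIG and 390, 333 and 370 with Blnk (log2 -0.38, SE 0.0788; limma adjusted p = 0.0415). Atf5, a relative of Atf4 that is likewise translated under stress, read 306, 297 and 265 with pMIG and 195, 217 and 228 with Blnk (log2 -0.44, SE 0.0900; limma adjusted p = 0.0410). Both had separate groups, and neither passed whichever array was omitted: Chac1 lay between 0.0612 (Blnk 1) and 0.169 (pMIG 3), and Atf5 between 0.0796 (pMIG 3) and 0.146 (pMIG 2). With array weights Atf5 did not pass (0.0513).

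Sesn2, an inhibitor of mTORC1 that binds leucine, lay just outside the threshold. It read 153, 158 and 161 with pMIG and 127, 119 and 133 with Blnk (log2 -0.32, SE 0.0713; limma adjusted p = 0.0589), and its groups were separate. Ddit3 (CHOP), the factor of prolonged stress, pointed the other way without passing, at 130, 123 and 136 with pMIG and 142, 130 and 155 with Blnk (log2 0.13, 95% interval -0.07 to 0.33; limma adjusted p = 0.549). Ddit4, another mTORC1 inhibitor, spread widely within the Blnk group, from 451 to 708, and stood at -0.06. Cebpb, a partner of ATF4, stood at -0.16 (95% interval -0.48 to 0.17), and Vldlr, a lipoprotein receptor, was dim and stood at 0.12. The groups of these 4 genes overlapped.

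Among 21 other measured regulators and targets of the integrated stress response, 0 rose and 1 fell, with a median of 0.01. This was Atf3, a repressor induced downstream of ATF4, which read 165, 179 and 168 with pMIG and 123, 114 and 124 with Blnk (log2 -0.50, SE 0.0718; limma adjusted p = 0.00918). Atf3 passed with each array left out except pMIG 3 (0.0568). At an unadjusted p under 0.05, 3 genes of this list were lower and 4 higher, against 6.32% and 8.91% of all genes. The lower ones were Atf3, Eif4ebp1 and Nupr1, a small stress-induced nuclear protein at -0.34 (limma adjusted p = 0.0773). The higher ones were Eif2ak1 (0.34, limma adjusted p = 0.0870), Eif2ak3 (0.17, limma adjusted p = 0.281), Eif2b2 (0.27, limma adjusted p = 0.0796) and Herpud1 (0.22, limma adjusted p = 0.152). Of the other eIF2 kinases, GCN2, listed as Eif2ak4, stood at 0.18 and Eif2ak2 at 0.01, both with overlapping groups. Apart from Atf3, these genes were named after their values were seen.

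The promoters of the members were searched for TGATGNAA, the core of the amino acid response element, and for the E-box CACGTG. Promoter windows of RefSeq (GRCm38.p6), from 250 bases before to 50 after the start site, were matched for 40 of the 48 genes. Slc7a3, Slc7a5, Slc1a5, Slc38a1, Cars, Nars, Wars and Cth had none in that table. The response element core, on either strand, was found for 13 of the 40 genes (32.5%) and for 4.51% of all 27025 genes with such windows. The list took in genes that Atf4 is known to control, so this difference in shares is no test. The E-box was found for 5 of 40 (12.5%) and for 8.09% of all genes, and no match of one motif overlapped a match of the other in these members. Of the 7 members that fell and had a window, Asns, Chac1 and Trib3 held the core, and Aldh18a1, Atf5, Gldc and Gpt2 did not. The median log2 difference was -0.17 over the 11 measured members with the core and -0.16 over the 27 without it. A match is a description of the letters and no measured binding.

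The 250 bases before the start site are shown for Asns and Chac1, as members that fell and hold the core, with the matched letters in capitals and all else in lower case, 5′ to 3′ on the strand of the gene. Asns lies at chr6:7693210-7693459 on the minus strand and Chac1 at chr2:119350992-119351241 on the plus strand (GRCm38.p6). The Asns match, TGATGAAA, starts at -23 from the start site, and the Chac1 match, TTGCATCA, is on the opposite strand and starts at -193.
Asns: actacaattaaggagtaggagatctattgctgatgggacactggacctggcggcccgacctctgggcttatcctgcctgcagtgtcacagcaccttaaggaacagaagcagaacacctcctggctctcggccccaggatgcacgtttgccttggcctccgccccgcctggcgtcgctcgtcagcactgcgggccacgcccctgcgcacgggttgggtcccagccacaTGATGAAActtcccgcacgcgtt
Chac1: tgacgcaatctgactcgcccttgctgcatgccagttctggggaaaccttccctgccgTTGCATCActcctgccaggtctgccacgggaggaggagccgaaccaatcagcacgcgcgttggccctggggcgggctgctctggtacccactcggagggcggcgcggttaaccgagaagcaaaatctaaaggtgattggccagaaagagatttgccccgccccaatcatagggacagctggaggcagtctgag

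The match of Trib3, which fell, is compared with those of 3 members that held the core and did not pass, Gars, Got1 and Slc7a11, as 30 bases around 1 match each. Slc7a11 held a further match, at -47 to -40 on the opposite strand, which is not shown. Their log2 differences were -0.42 for Trib3, -0.17 for Gars, -0.13 for Got1 and -0.03 for Slc7a11. The Trib3 match lies after the start site, at 15 to 22, and the other 3 shown lie before it. Among the measured members with the core that did not pass and are not shown, Yars (4 to 11) and Iars (8 to 15) also held it after the start site. Slc1a4 (-4 to 4) held it across the start site, and Tars and Vldlr before it. In GRCm38.p6 the stretches lie at chr2:152344028-152344057 on the minus strand, chr6:55037960-55037989 on the plus strand, chr19:43524689-43524718 on the minus strand and chr3:50443661-50443690 on the minus strand, in this order.
Trib3: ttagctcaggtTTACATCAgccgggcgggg
Gars: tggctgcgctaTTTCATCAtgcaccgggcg
Got1: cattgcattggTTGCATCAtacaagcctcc
Slc7a11: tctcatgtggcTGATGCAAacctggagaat
The same core was thus found both for members that fell and for members that did not pass.

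None of the 10 measured cytosolic synthetases was called changed by limma, but 9 of 10 had a lower mean with Blnk, with a median of -0.16 and a narrow range from -0.26 (Eprs) to 0.11 (Wars). At an unadjusted p under 0.05, 3 were lower and 0 higher: Eprs, the glutamyl-prolyl enzyme (adjusted p = 0.272 by limma), Sars, the seryl enzyme (-0.20, limma adjusted p = 0.258), and Gars, the glycyl enzyme (-0.17, limma adjusted p = 0.252, and 0.0396 with the variance prior following the mean). Gars read 2559, 2566 and 2589 with pMIG and 2372, 2249 and 2225 with Blnk. For 6 of 10 synthetases (Cars, Gars, Sars, Eprs, Iars and Yars) every Blnk array lay below every pMIG array. Over all genes, 8.15% were separate and lower, 50.4% had a lower mean, and 6.32% were lower at an unadjusted p under 0.05. On a dimmer probe of Iars the groups overlapped, at -0.04, and the probe that Aars has in common with Exosc6 stood at 0.01. Cars, Iars and Yars, the cysteinyl, isoleucyl and tyrosyl enzymes, stood at -0.15, -0.16 and -0.17. Nars and Tars, the asparaginyl and threonyl enzymes, stood at -0.13 and -0.11 with overlapping groups. Wars, the tryptophanyl enzyme, which interferon also induces, read 939, 990 and 921 with pMIG and 1121, 940 and 1019 with Blnk, with overlapping groups.

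The 27 other measured synthetases and partners, mostly mitochondrial, had 0 up and 1 down, a median of -0.06 and a lower mean for 21. Their groups were separate for 8 lower and 1 higher, against 8.15% and 11.8% of all genes. At an unadjusted p under 0.05, 4 were lower and 0 higher, against 6.32% and 8.91% of all genes. Besides Mars2 these were Wars2 (-0.32, limma adjusted p = 0.0833), Lars (-0.29, limma adjusted p = 0.136) and Nars2 (-0.28, limma adjusted p = 0.273), named after their values were seen. Mars2, the mitochondrial methionyl enzyme, fell from 600, 521 and 579 with pMIG to 402, 393 and 392 with Blnk (log2 -0.52, SE 0.0757; limma adjusted p = 0.0102). It passed without pMIG 1 (0.0448), pMIG 2 (0.0172) or Blnk 1 (0.0464) but not without pMIG 3 (0.0692), Blnk 2 (0.0622) or Blnk 3 (0.0607). Its cytosolic counterpart Mars1 stood at -0.14 with overlapping groups.

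The 3 Blnk arrays were not alike for these genes. The median log2 deviation of the 46 members from their pMIG mean was -0.09 on Blnk 1, -0.20 on Blnk 2 and -0.21 on Blnk 3, while over all genes it was 0.01, -0.02 and 0.02. Blnk 1 was the highest of the Blnk arrays for 32 of 46 members (33.6% of all genes) and Blnk 2 the lowest for 29 (36.8% of all genes). Shmt1, at 901 on Blnk 1 against 713 and 697, and Mthfd1, at 1038 against 792 and 751, show this most plainly, and on Blnk 1 both exceeded every pMIG array. These 2 genes were picked after their values were seen. The median of the members was -0.20 without Blnk 1 and -0.12 without Blnk 2.

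**Figure D4:**
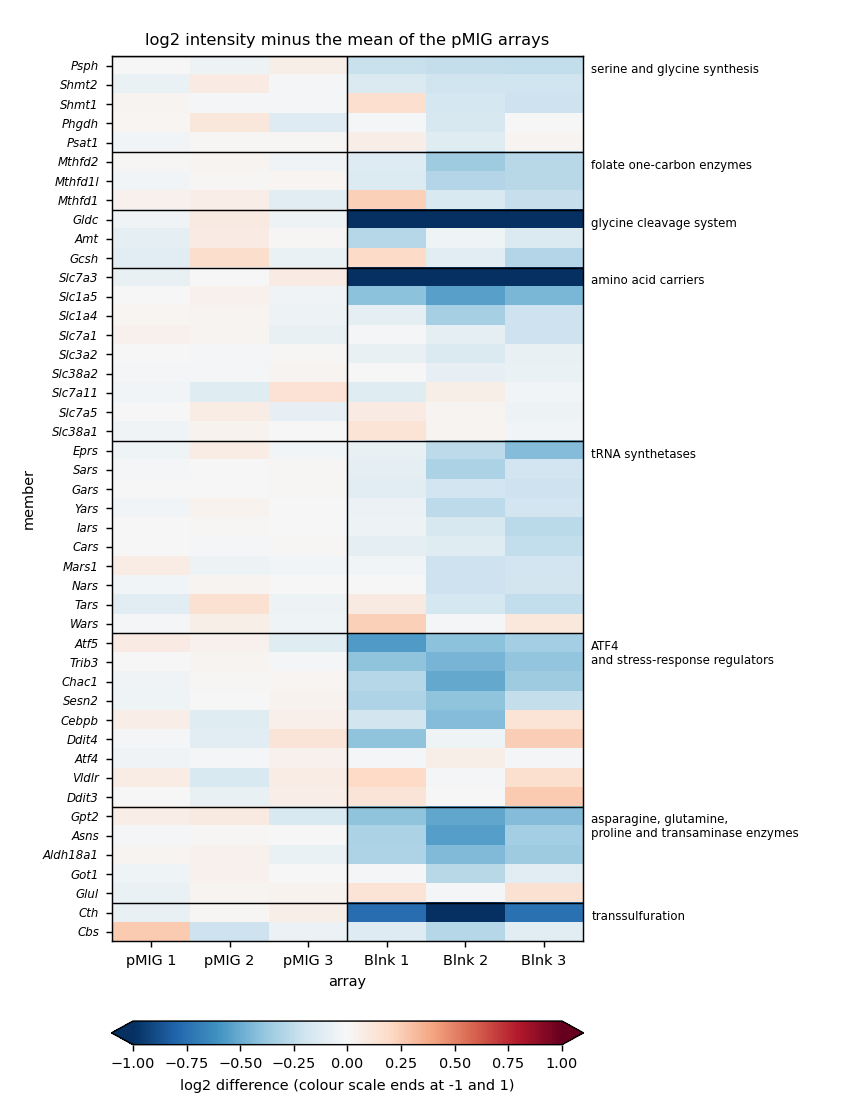
Log2 intensity of each member on each array minus its mean over the pMIG arrays, by sub-function (blue lower, red higher; the colour scale ends at -1 and 1). The Blnk columns are blue for most rows, palest on Blnk 1, and the rows of Gldc, Slc7a3 and Cth are the darkest.

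The 109 other measured genes of the pathway had a median difference closer to 0 than that of the members. Of these, 2 rose and 5 fell, against 2.51% and 1.10% of all genes, their median was -0.02, and 66 of 109 had a lower mean with Blnk. Of these other genes 27 lay below the array medians on every array, against 3 of the 46 members, and the part of this in the medians was not tested. No test of the difference between these lists was made, since their members were chosen with earlier results known.

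**Figure D5:**
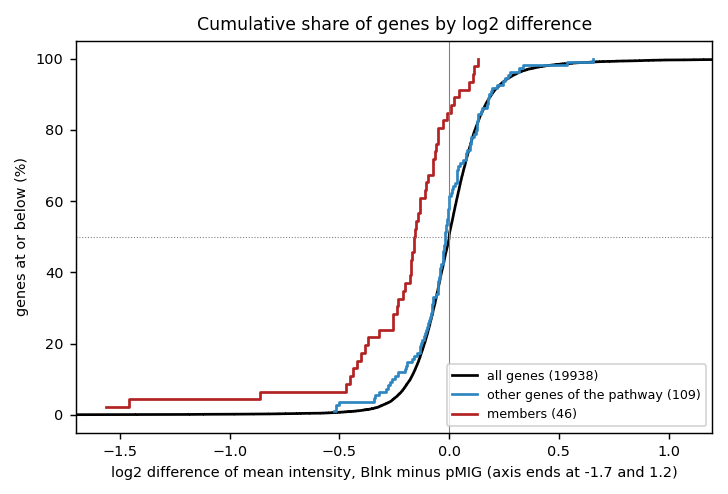
Cumulative share of genes (percent) by log2 difference of mean intensity, Blnk minus pMIG, for all 19938 genes (black), the 109 other genes of the pathway (blue) and the 46 members (red); the axis ends at -1.7 and 1.2, so larger changes are not drawn. The red line crosses 50% at -0.16, the blue line at -0.02 and the black line at 0.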

How the data were processed

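The deposited table holds 1 linear intensity per probe and array, as whole numbers from 3 to 22187 for 35421 probes, and the submitters' processing notes name RMA without a version. Probes were named from the platform annotation (21789 with 1 symbol, 1621 with several, 12011 not listed), and the brightest single-gene probe stood for each gene. Because the deposited intensity was linear, log2 was taken with nothing added. limma 3.58.1 (R 4.3.3) fitted the difference between Blnk and pMIG arrays for all genes at once, by lmFit and eBayes with a term for the group alone and no filter, and the code was checked on simulated data. The members, the sub-function lists and the lists of other pathway genes were chosen with earlier results of these data known. Array values are given for every member past the threshold and for Atf4, Asns, Ddit3, Chac1, Trib3, Phgdh, Psat1, Mthfd2, Slc7a5, Slc7a11 and Cth whatever their values, and of the other pathway genes those past the threshold are named. Members named beyond this, with or without array values, illustrate their sub-function. Of 124 other pathway genes, 109 were measured. Alternatives were a replicate block, 2 scalings, a filter on dim genes, 16 added before log2, the mean over probes, a variance trend, array weights and each array left out. Promoter windows came from RefSeq (GRCm38.p6) and their motifs were read on both strands.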

Additional observations from a re-analysis of the deposited data

How the results depend on the processing

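Of the 10 members called lower, Slc7a3, Gldc and Cth passed in every alternative run. The number of members called lower was 10 to 14 in every alternative with all 6 arrays and no replicate block, and 3 to 5 with 1 array left out, and 0 members were called higher in any. Sesn2 was also called lower after repeated quantile normalization, without dim genes, with 16 added, with a variance trend and with array weights, where Atf5 was not. The number of genes changed, 720, was 1228 without genes below the 40th percentile, 1100 with 16 added before log2, 1313 with a variance trend and 267 to 437 with 1 array left out. The causes of these differences in number were not tested. Samples of equal number did not deviate together (r of their deviations -0.19, 0.06 and -0.12), so the numbers were not taken to pair them. With the replicate block 3 members were called lower and 289 genes changed. Signs turned in some alternative for 8 of 46 members, whose reported differences were -0.07 to 0.04: Atf4, Slc7a5, Psat1, Slc7a11, Slc38a1, Ddit4, Gcsh and Mthfd1. Atf4 turned to -0.050 after repeated quantile normalization, -0.026 with centred arrays and -0.0035 with array weights, and with 1 array left out it lay between -0.013 (without Blnk 2) and 0.032 (without pMIG 3). Slc7a5 turned to -0.027 after quantile normalization and -0.015 with centred arrays, and lay between -0.019 (without pMIG 3) and 0.056 (without Blnk 3). With 1 array left out, Psat1 lay between -0.047 (without Blnk 1) and 0.047 (without Blnk 2), and Slc7a11 between -0.087 (without pMIG 2) and 0.045 (without pMIG 3). Whole-number rounding limits dim members such as Slc7a11, Vldlr and Amt.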

Other observations

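Some members had further probes that the gene values did not use. A probe annotated to both Phgdh and its relative Gm6756 read 1762 ± 117 with pMIG and 1814 ± 128 with Blnk (SD, n = 3), a log2 difference of 0.04, next to -0.06 on the probe of Phgdh alone. The probe that Aars has in common with Exosc6 read 910, 905 and 880 with pMIG and 947, 898 and 866 with Blnk, a difference of 0.01. The dimmer probes of Glul (0.04), Slc38a1 (0.03) and Iars (-0.04) gave smaller differences than the brightest ones (0.09, 0.04 and -0.16). These probes were not tested. For Iars the groups overlapped on the dimmer probe, at 1666, 1828 and 1742 with pMIG and 1882, 1644 and 1579 with Blnk, and were separate on the brightest.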
